A study of Mus musculus with 6 samples.

Results

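The natriuretic peptide genes measured here were Nppc, which encodes C-type natriuretic peptide, and the genes of the natriuretic peptide receptors, Npr1, Npr2 and Npr3. They were taken by name, as 4 of the 16494 genes of the count table, and they were chosen by their measured levels, that is by how these differed among cell types and between WT and Arom mice, so those levels and genotype differences are given as descriptions without a test. The mice were males of the FVB/N strain aged 9 to 10 weeks. Arom mice (Aromhum) carried the human aromatase gene CYP19A1 as a transgene under its own tissue-specific promoters and had developed scrotal hernias, and the controls were WT littermates. Lower abdominal muscle (LAM) of 3 WT and 3 Arom mice was dissociated with enzymes, passed through a filter to take out multinucleated cells, and sequenced by the 10x Genomics 3′ method. The comparison asked how the cells of this muscle differ when estrogen made by aromatase is high. The study states that these males also have less circulating androgen, and the part of each hormone was not tested. Here the comparison was read for the source of the peptide and for the cells that carry its receptors.

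C-type natriuretic peptide is a secreted signal that acts mostly on nearby cells. It binds NPR-B, the guanylyl cyclase encoded by Npr2, which makes cyclic GMP inside the cell. NPR-A, encoded by Npr1, is the cyclase that answers to the atrial and brain natriuretic peptides made mainly by the heart. NPR-C, encoded by Npr3, binds all of these peptides, takes them up for degradation and can signal through inhibitory G proteins. The peptide is best known from the growth plate of bone, from the vessel wall and from the ovarian follicle. Inside cells, cyclic GMP is read by cyclic GMP-dependent kinases and removed by phosphodiesterases.

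In the GRCm38 annotation, Nppc (ENSMUSG00000026241) lies on the minus strand of chromosome 1 from 86666291 to 86670571, and Npr1 (ENSMUSG00000027931) on the minus strand of chromosome 3 from 90450591 to 90465866. Npr2 (ENSMUSG00000028469) lies on the plus strand of chromosome 4 from 43631935 to 43651244, and Npr3 (ENSMUSG00000022206) on the minus strand of chromosome 15 from 11839896 to 11907287. All 4 are protein-coding genes. The 250 bases before the RefSeq start (GRCm38.p6) are shown for Nppc, the gene with the largest class and genotype differences among the 4, and for Npr1, as 1 of the receptors. Both are read 5′ to 3′ on the strand of the gene, and capitals mark the motifs found by search.
Nppc, chr1:86670574-86670823, minus strand: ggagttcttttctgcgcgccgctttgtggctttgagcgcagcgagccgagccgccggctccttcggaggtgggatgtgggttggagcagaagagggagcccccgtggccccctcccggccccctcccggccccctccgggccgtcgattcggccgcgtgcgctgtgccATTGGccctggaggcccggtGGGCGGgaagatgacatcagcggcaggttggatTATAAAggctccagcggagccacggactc
Npr1, chr3:90465867-90466116, minus strand: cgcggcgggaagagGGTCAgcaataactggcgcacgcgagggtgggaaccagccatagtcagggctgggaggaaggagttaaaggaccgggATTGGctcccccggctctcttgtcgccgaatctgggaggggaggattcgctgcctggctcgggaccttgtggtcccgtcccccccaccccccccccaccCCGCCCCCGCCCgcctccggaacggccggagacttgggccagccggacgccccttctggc
The Nppc sequence holds TATAAA at 29 to 24 bases before the start, GGGCGG at 62 to 57 bases and, on the opposite strand, CCAAT at 82 to 78 bases. The Npr1 sequence holds GGTCA, which is 1 arm of an estrogen response element, at 236 to 232 bases, a pair of GGGCGG matches on the opposite strand and 1 CCAAT match. The full palindromic estrogen response element, which is this arm, 3 free bases and its inverted repeat, was in none of the 4 promoters. Each motif was searched on both strands, and every match of the palindrome also holds GGTCA. Among 32841 promoters of the same length, 12.4% held TATAAA, 32.7% GGGCGG, 33.9% CCAAT, 35.2% GGTCA and 0.0639% the palindrome. The G and C content was 69.2% for Nppc, 70.4% for Npr1, 64.4% for Npr2 and 38.8% for Npr3, against a median of 52.4% over all promoters. A match of letters is a description and shows no binding.

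The table held 63647 barcodes, of which 59227 had at least 200 genes and 1000 unique molecular identifiers (UMIs, each a counted RNA molecule) and were kept. Total UMIs per mouse were 64958237 to 72876541 in WT and 92652109 to 111826460 in Arom, so the Arom libraries were deeper. Arom cells held 767 to 792 UMIs of CYP19A1 per mouse, and no cell of 26444 from the 3 WT mice had one, which allows a share of cells with a UMI of up to 0.0113%, by counting error only. Between the samples 471 barcode sequences were shared by more than 1 mouse. The kept cells formed 33 clusters, named from marker genes, of which 7 (6073 cells) stayed unnamed. The members and their pathway genes were left out of the genes used for clustering. The Esr1-high HAF-like class (HAF, hernia-associated fibroblast) was clusters 4 and 11, each with 8 of 8 fibroblast markers and 7 of 8 markers of the subgroup. It held 373, 126 and 112 cells in WT mice 1 to 3 and 2052, 2566 and 834 cells in Arom mice 1 to 3. Cluster 11 lay between the subgroups: Esr1 was at 65.2 CPM there, against 252 CPM in cluster 4 and 16.7 CPM in the Mmp3-high HAF-like cluster 13. Its 10 leading genes held 1 marker of each subgroup, Cilp and Cthrc1. Of the 9 Mmp3-high markers, 8 were higher in it than in cluster 4 and 2 were higher than in cluster 13. With finer clusters the Mmp3-high HAF-like class grew from 1903 to 3115 cells, and its leading genes then included Cthrc1, Wisp2 and Il1rl1. Cluster 11 had 15, 7 and 7 WT cells and 1062, 1155 and 275 Arom cells, so values for cluster 4 alone are given as well. Levels are CPM, the UMIs of a gene scaled to 1 fixed total of UMIs, from sums per mouse and class, for the 26 classes with at least 10 cells in every mouse. Since 3′ UMIs count molecules at their 3′ end, levels are compared between classes and not between genes.

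With the 6 mice pooled, most Nppc RNA was in Esr1-high HAF-like cells. This class held 169308 of the 185418 Nppc UMIs of all kept cells, and most of these came from Arom mice. By mouse, the class held 45.3% to 71.4% of the Nppc UMIs in WT and 91.9% to 93.6% in Arom. Its level was 1137 ± 633 CPM (SD, n = 6 mice, range 470 to 1963), and it stood apart from every other class by more than the SDs of both. Next came the unnamed cluster 24 at 199 ± 211 CPM, cluster 26 of other fibroblast-like cells (leading genes Apod and Cxcl5) at 164 ± 51.0 CPM and muscle stem cell/myoblast-like cells (MuSCs/myoblasts) at 117 ± 86.4 CPM. Cluster 24 carried all 8 fibroblast markers beside its endothelial ones, and 29 of its 30 cells with at least 10 Nppc UMIs were marked as doublets. From this rank down, no class differed from its neighbor by more than their SDs, and venular-like endothelial cells were lowest at 2.49 ± 1.56 CPM. An Nppc UMI was found in 57.5% of Esr1-high HAF-like cells (median depth 15202 UMIs) and in 0.803% of capillary-like cells (median depth 2780 UMIs). After every cell was thinned to 1000 UMIs, these shares were 34.1% and 0.311%. MuSCs/myoblasts had an Nppc UMI in 23.2% of cells, and in 9.13% after thinning. These shares pool the cells of all mice. As means over the 6 mice, the shares before thinning were 46.0% in Esr1-high HAF-like cells and 22.5% in MuSCs/myoblasts.

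**Figure D1:**
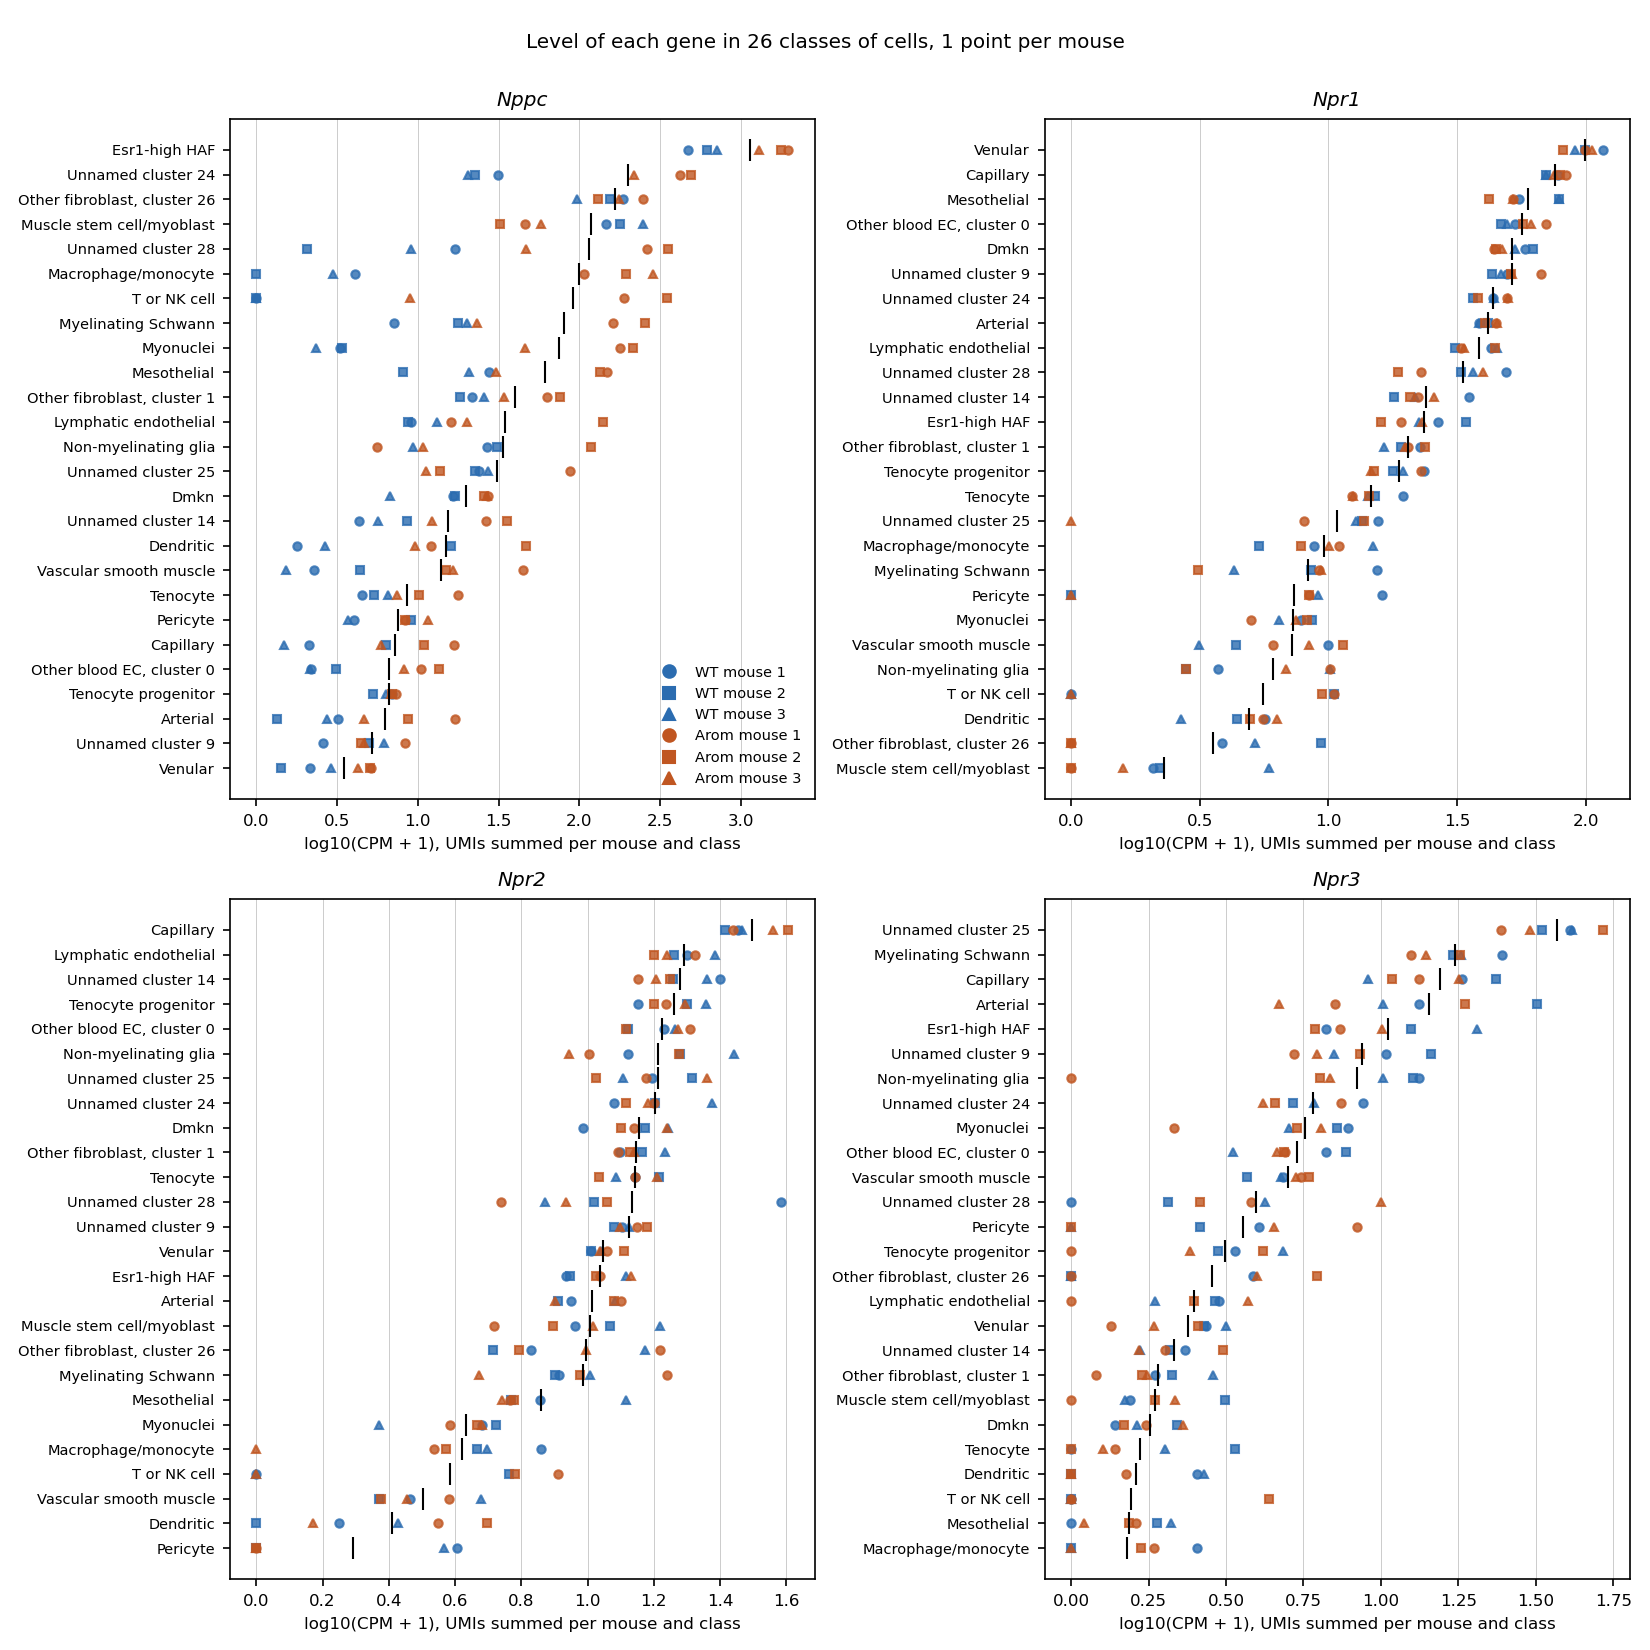
Level of Nppc, Npr1, Npr2 and Npr3 in 26 classes of cells, as log10(CPM + 1) of UMIs summed per mouse and class. Each point is 1 mouse (blue WT, orange Arom), the black bar is log10(mean CPM + 1) over the 6 mice, and classes are ordered by that mean. Nppc was highest in Esr1-high HAF-like cells, Npr1 in venular-like cells, Npr2 in capillary-like cells and Npr3 in the unnamed cluster 25.

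In Arom LAM, more of the cells were of the class that held Nppc, and those cells held more of it. Esr1-high HAF-like cells made up 3.99%, 1.31% and 1.49% of the cells of WT mice 1 to 3, and 18.1%, 19.7% and 9.87% of the cells of Arom mice 1 to 3. The whole sample held 46.3, 31.3 and 32.2 CPM of Nppc in WT mice and 727, 661 and 273 CPM in Arom mice. All Arom mice were above all WT mice in both measures, and Arom mouse 3 was the lowest of its group in both. Cluster 4 alone made up 3.83%, 1.24% and 1.40% of the cells of WT mice and 8.73%, 10.9% and 6.62% of those of Arom mice, again without overlap. The class held 71.4%, 45.3% and 50.9% of the Nppc UMIs of WT mice and 93.6%, 91.9% and 92.2% of those of Arom mice. Cluster 4 alone held 71.2%, 45.2% and 50.9% in WT and 83.3%, 85.8% and 90.5% in Arom. With the study's upper limits and clusters made anew, the class was small in both genotypes and its cell numbers overlapped. It then held 101, 11 and 15 cells in WT mice 1 to 3 and 90, 111 and 30 in Arom mice 1 to 3.

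Within Esr1-high HAF-like cells, Nppc reached 479, 589 and 717 normalized CPM (scaled by TMM factors) in WT mice 1 to 3 and 2066, 1812 and 1234 normalized CPM in Arom mice 1 to 3. The genotypes did not overlap, with means of 594.86 ± 119.40 and 1704.11 ± 426.62 normalized CPM (SD, n = 3). The log2 difference was 1.52 (SE 0.23), and it ran from 1.35 to 2.48 over 14 alternative ways of processing. In cluster 4 alone, the values were 504, 679 and 793 in WT and 3470, 2812 and 1796 normalized CPM in Arom, a log2 difference of 2.03 (SE 0.28). In this class 34.6% of the 12146 genes tested did not overlap between genotypes, so the absence of overlap by itself is common there. Of the other marker lists in the class, the summed level was lower in every Arom mouse for the blood endothelial list (80.0 to 94.0 against 105 to 138 CPM) and the mesothelial list (45.2 to 59.7 against 74.5 to 83.9 CPM), though in the latter 1 of 8 genes was lower and 4 were higher. It was higher for the non-myelinating glia list (46.6 to 75.1 against 17.0 to 24.8 CPM), the macrophage/monocyte list (17.2 to 26.5 against 7.38 to 17.0 CPM) and, at low levels, the dendritic, T or NK cell and lymphatic lists. In cluster 4 alone the fibroblast list itself was lower in Arom, at 31431 to 33430 against 39782 to 44567 CPM, with 1 of its 8 genes lower and 2 higher. Their part in the Nppc difference was not tested. Beside Nppc, Pgr, the progesterone receptor gene and a classic target of estrogen, was at 13.9 ± 6.18 CPM in WT and 123 ± 40.5 CPM in Arom (SD, n = 3), without overlap. Esr1, the estrogen receptor alpha gene, was at 284 ± 33.2 and 187 ± 71.1 CPM, and Greb1, another estrogen target, at 117 ± 40.3 and 141 ± 32.3 CPM, and both overlapped. In cluster 4 alone, Pgr was at 14.5 ± 6.41 and 166 ± 54.8 CPM, without overlap, and Esr1 at 304 ± 49.0 and 261 ± 80.1 CPM and Greb1 at 124 ± 42.9 and 180 ± 37.2 CPM, which overlapped. Esr1 and Greb1 were also markers that named the class.

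**Figure D2:**
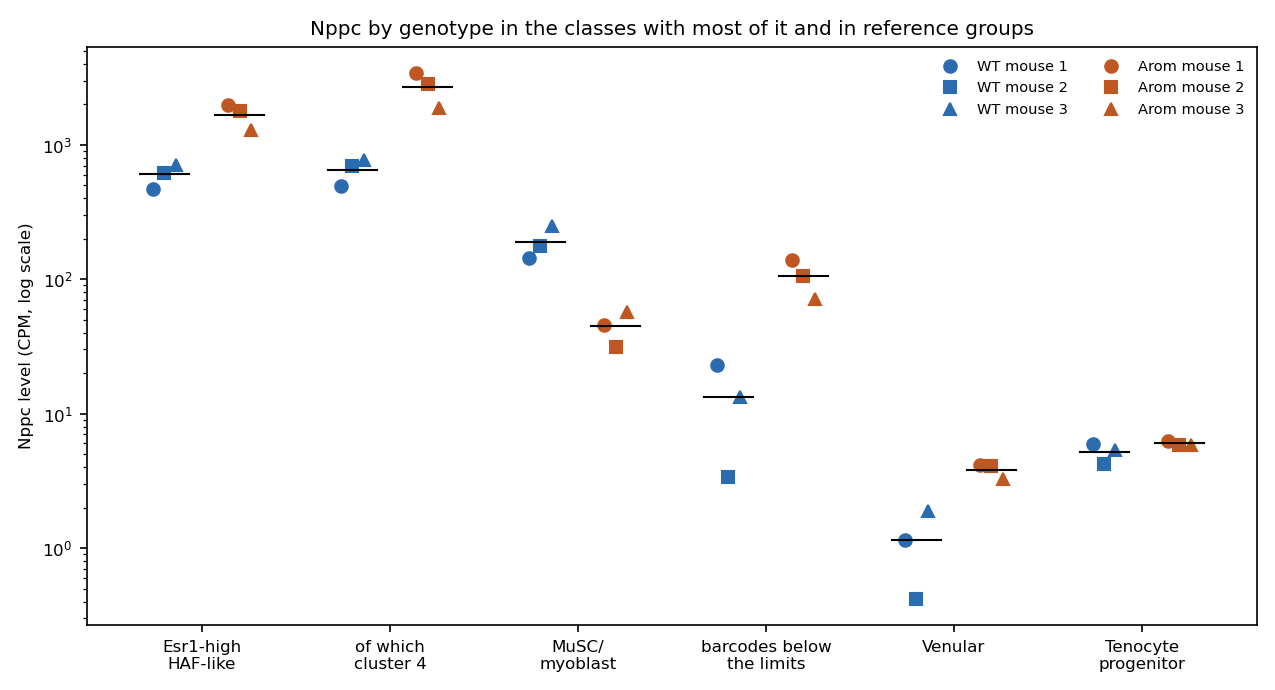
Nppc level in CPM (log axis) in each mouse, with lines at the genotype means (n = 3), for the class richest in it, for its cluster 4, for MuSC/myoblast-like cells, and for barcodes below the limits of 200 genes and 1000 UMIs, venular-like and tenocyte progenitor-like cells. All 3 Arom mice were above all 3 WT mice in Esr1-high HAF-like cells, and all 3 were below them in MuSC/myoblast-like cells.

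The distribution over single cells also differed. In cluster 4, the share of cells with 10 or more Nppc UMIs was 14.0%, 14.3% and 14.3% in WT mice and 59.4%, 55.6% and 49.2% in Arom mice. The share with no Nppc UMI was 57.0%, 73.1% and 67.6% in WT and 19.8%, 20.4% and 29.3% in Arom. A cell with no UMI may still hold the RNA. The tenth of WT cells with the most Nppc carried 76.3% to 89.1% of its UMIs. The same share of Arom cells carried 48.3% to 55.3%. The median depth of these cells was 10341 to 11875 UMIs in WT and 14155 to 19187 UMIs in Arom, and the part of depth in these shares was not tested. Single Arom cells reached 829 Nppc UMIs. Cluster 11 held less, with 10 or more Nppc UMIs in 15.7%, 10.2% and 5.45% of cells of Arom mice. Among its 29 cells from the 3 WT mice none had as many, which allows a share of cells with 10 or more UMIs of up to 10.3%, by counting error only.

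**Figure D3:**
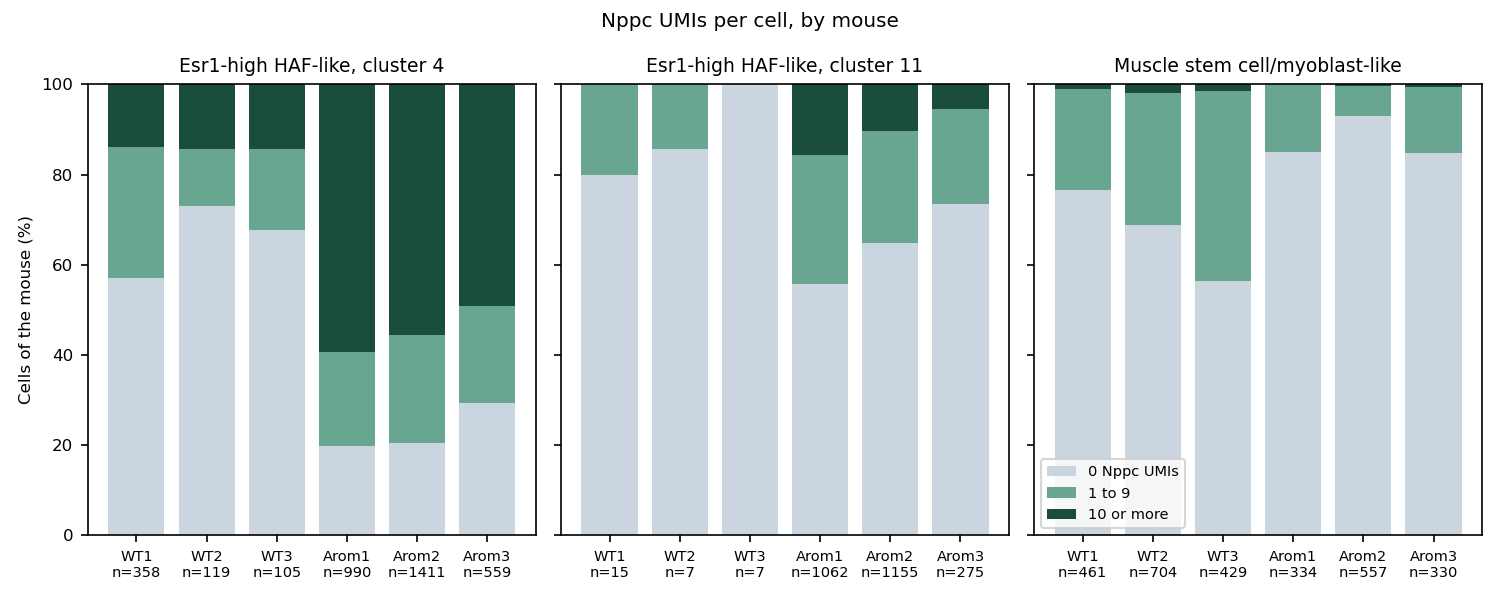
Share of cells (%) with 0, 1 to 9 and 10 or more Nppc UMIs in each mouse, in cluster 4 and cluster 11 of the Esr1-high HAF-like class and in MuSC/myoblast-like cells, with the number of cells under each bar. In cluster 4 the share with 10 or more was 14.0% to 14.3% in WT and 49.2% to 59.4% in Arom, and in MuSC/myoblast-like cells the share with 0 was higher in each Arom mouse than in any WT mouse.

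Within cluster 4, cells with 10 or more Nppc UMIs were set beside cells with none, as a description made after Nppc had been looked at. Esr1 was higher in the cells with Nppc in all 6 mice. It was at 366 against 205, 441 against 326 and 373 against 233 CPM in WT mice 1 to 3 and at 209 against 185, 238 against 215 and 395 against 306 CPM in Arom mice 1 to 3, so the gap was small in Arom mice 1 and 2. Npr1 was lower in the cells with Nppc in all 6 mice. It was at 17.1 against 24.2, 21.8 against 39.9 and 21.2 against 24.9 CPM in WT mice 1 to 3. In Arom mice 1 to 3 it was at 14.2 against 17.7, 10.9 against 15.6 and 20.1 against 28.3 CPM. The share of cells with an Npr1 UMI, set by any Nppc UMI, had no common direction, being higher in 3 mice and lower in 3. Pgr was higher in 5 of 6 mice, the exception being WT mouse 2 at 4.37 against 6.80 CPM. Greb1 was higher in 5 of 6 mice, the exception being Arom mouse 1 at 144 against 149 CPM. Npr2 and Npr3 had no common direction, with Npr2 higher in the cells with Nppc in Arom mice 2 and 3 and lower in the other 4 mice. The WT values rest on 50, 17 and 15 cells with Nppc, and cells with Nppc were deeper in every mouse.

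**Figure D4:**
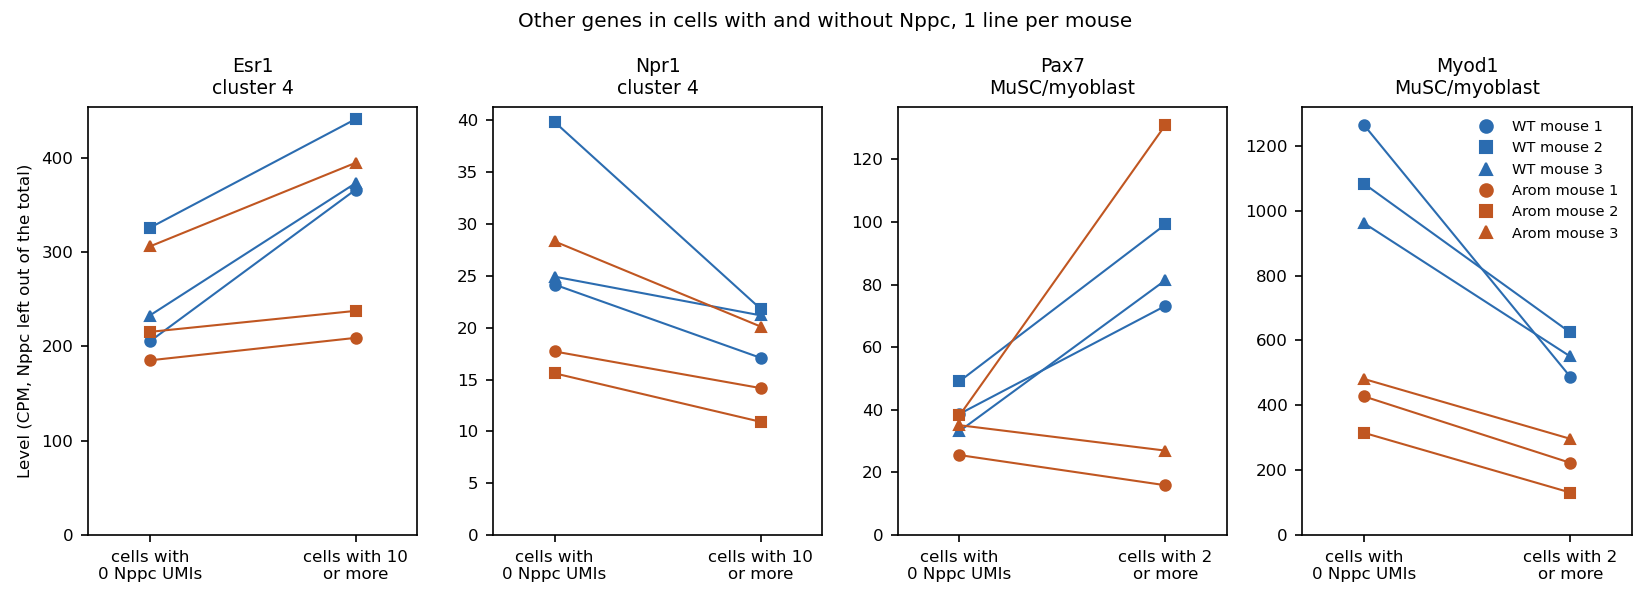
Level in CPM, with Nppc left out of the total, of Esr1 and Npr1 in cluster 4 cells with 0 and with 10 or more Nppc UMIs, and of Pax7 and Myod1 in MuSC/myoblast-like cells with 0 and with 2 or more, with 1 line per mouse. In all 6 mice Esr1 was higher and Npr1 and Myod1 were lower in the cells with Nppc, and Pax7 was higher in all 3 WT mice and 1 Arom mouse.

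In MuSCs/myoblasts the direction was the opposite. Nppc was at 149, 189 and 257 normalized CPM in WT mice 1 to 3 and at 43.1, 28.7 and 60.0 normalized CPM in Arom mice 1 to 3, a log2 difference of -2.20 (SE 0.27). The genotypes did not overlap, as was so for 25.6% of the 8085 genes tested in this class. Over 15 alternatives the log2 difference ran from -3.41 to -1.94. The share of cells with no Nppc UMI was 76.6%, 68.9% and 56.4% in WT and 85.0%, 93.0% and 84.8% in Arom, at median depths of 3716 to 4627 and 3195 to 4845.5 UMIs. Barcodes below the limits, which may be shallow cells or droplets with free RNA, held 3.39 to 23.1 CPM of Nppc in WT and 71.4 to 138 CPM in Arom, the opposite direction. The summed level of the 7 markers of the class was 2255 to 4100 CPM in WT and 1478 to 2240 CPM in Arom, with 1 of the 7 genes lower and 0 higher. The fibroblast list was at 481 to 747 CPM in WT and 1225 to 3955 CPM in Arom, with 7 of 8 genes higher, and the vascular smooth muscle list at 348 to 485 and 871 to 1362 CPM, with 2 of 7 genes higher and 1 lower. The myelinating Schwann list was lower in Arom, at 87.5 to 118 against 141 to 159 CPM, with 4 of 6 genes lower, and the macrophage/monocyte (15.2 to 30.2 against 8.29 to 12.5 CPM) and mesothelial lists (8.45 to 19.9 against 1.95 to 4.88 CPM) were higher. The part of these lists in the Nppc difference was not tested.

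Among MuSCs/myoblasts, 3 genes of the muscle lineage were compared between cells with and without Nppc UMIs, without a test. Only Myod1 had the same direction in all 6 mice. Pax7, the transcription factor of quiescent and self-renewing satellite cells, was at 73.2, 99.3 and 81.4 CPM in WT cells with 2 or more Nppc UMIs and at 38.7, 49.1 and 33.2 CPM in those with none. Myod1, which drives commitment to the muscle lineage, was lower in the cells with Nppc in all 6 mice, at 488 against 1263, 625 against 1083 and 551 against 961 CPM in WT and 223 against 427, 131 against 315 and 297 against 481 CPM in Arom. The Arom values rest on 12, 10 and 16 cells with Nppc, and Pax7 had no common direction there. Myf5, a myogenic factor also made in satellite cells, was at 207 against 73.9, 111 against 105 and 159 against 105 CPM in WT and at 207 against 131, 87.3 against 118 and 108 against 83.3 CPM in Arom. It was thus higher in the cells with Nppc in 5 of the 6 mice. The 3 genes were chosen after Nppc values were seen. Greb1 was higher in Arom in this class, at 3.97 ± 2.34 CPM in WT and 67.3 ± 40.7 CPM in Arom (SD, n = 3). The summed fibroblast list was also higher there in Arom, and its part in the Greb1 difference was not tested. Esr1 was lower in Arom, at 46.7 ± 7.06 CPM in WT and 24.2 ± 0.73 CPM in Arom (SD, n = 3).

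Nppc passed the filter on low counts in 18 of the 20 separate classes that had at least 20 cells in every mouse. It was higher in every Arom mouse than in any WT mouse in 12 of them, lower in 1 and overlapped in 5. Over all genes and the 20 classes, 10.3% of tests were higher without overlap and 9.85% lower. Nppc was chosen by this contrast and could pass the filter through the Arom mice alone, so its counts are a description. Barcodes below the limits held 3.39 to 23.1 CPM of Nppc in WT and 71.4 to 138 CPM in Arom. The part of free RNA in these classes was not tested. In blood endothelial cells the levels were low throughout, at 1.20, 0.45 and 1.97 normalized CPM in WT and 3.93, 3.80 and 3.23 normalized CPM in Arom for venular-like cells, below the level in barcodes under the limits. In macrophage/monocyte-like cells, Nppc was at 3.20, 0.00 and 2.14 in WT and 111, 196 and 270 normalized CPM in Arom. There, 1837 of 2036 UMIs were in 26 cells with 10 or more, of which 15 were marked as doublets, and the remaining cells held 0 to 3.11 CPM in WT and 1.58 to 15.5 CPM in Arom. The summed fibroblast list in this class was at 2338 to 3947 CPM in WT and 6766 to 8744 CPM in Arom, with 6 of 8 genes higher.

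Other fibroblast-like cells held less Nppc. In cluster 1 (leading genes Has1 and Gsn), Nppc was at 21.6, 17.2 and 25.2 normalized CPM in WT and 62.7, 73.1 and 32.5 normalized CPM in Arom, a log2 difference of 1.38 (SE 0.27). In cluster 26 the genotypes overlapped, at 197, 167 and 104 normalized CPM in WT and 262, 137 and 182 normalized CPM in Arom. Mmp3-high HAF-like cells, with 1903 cells of which WT mice 2 and 3 gave 2 and 9, held 755 Nppc UMIs and were not compared between genotypes. Tenocyte progenitor-like cells were low in both, at 4.16 to 6.29 in WT and 5.76 to 6.29 normalized CPM in Arom. In mesothelial-like cells the levels were 26.0, 7.11 and 18.8 in WT and 152, 140 and 29.7 normalized CPM in Arom, a log2 difference of 2.70 (SE 0.67). In lymphatic endothelial-like cells the Arom mean rested on mouse 2, at 140 normalized CPM against 15.4 and 19.7 in the others. Of the Nppc UMIs in mesothelial-like cells, 2610 of 3287 lay in 38 cells with 10 or more, 15 of them marked as doublets. The remaining mesothelial-like cells held 7.12 to 19.7 CPM in WT and 15.2 to 32.9 CPM in Arom, which overlapped. In this class 25.3% of genes tested did not overlap.

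Npr1 was highest per UMI in venular-like and capillary-like endothelial cells, while fibroblast-like cells, which were more numerous and deeper, held 35.2% of its UMIs, blood endothelial cells 33.0% and mesothelial-like cells 10.9%. The unnamed cluster 9, which had 8 of 8 blood endothelial markers beside pericyte markers and is not counted with the endothelial cells, held 11.3%. Venular-like cells had 98.1 ± 12.1 CPM (SD, n = 6) and stood apart from capillary-like cells at 75.1 ± 5.45 CPM by more than the SDs. Mesothelial-like cells followed at 58.9 ± 15.3 CPM, the blood endothelial cluster 0 at 55.4 ± 8.55 CPM, Dmkn-like fibroblasts at 50.7 ± 7.67 CPM and arterial-like cells at 40.7 ± 3.04 CPM, and no neighbors among these differed by more than their SDs. Esr1-high HAF-like cells were at 22.6 ± 6.38 CPM and MuSCs/myoblasts were lowest at 1.29 ± 1.83 CPM. An Npr1 UMI was seen in 48.8% of venular-like cells (median depth 6824 UMIs) and in 0.604% of MuSCs/myoblasts (median depth 4153 UMIs).

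By genotype, Npr1 passed the filter in 14 of the 20 classes, and it was lower in all Arom mice than in any WT mouse in 4, higher in 1 and overlapping in 9. Over all genes and these 20 classes, 9.85% of tests were lower without overlap and 10.3% higher. In Esr1-high HAF-like cells Npr1 was at 26.1, 31.7 and 21.6 normalized CPM in WT and 19.1, 15.3 and 21.3 normalized CPM in Arom, a log2 difference of -0.52 (SE 0.19). WT mouse 3 and Arom mouse 3 were almost level, so the groups were barely separate. In this class 34.6% of the genes tested did not overlap. In cluster 4 alone the difference was -0.75 (SE 0.23). In mesothelial-like cells Npr1 was at 52.8, 77.8 and 74.3 in WT and 52.4, 43.3 and 52.0 normalized CPM in Arom, where 25.3% of all genes tested did not overlap.

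In Dmkn-like fibroblasts Npr1 was at 59.6, 59.6 and 52.0 in WT and 43.6, 46.7 and 43.2 normalized CPM in Arom, a log2 difference of -0.37 (SE 0.12) in a class where 21.6% of genes did not overlap. This turned to 0.050 when runs of the table's columns, each named by the same markers, took the place of the clusters. The class then held 15901 cells in place of 3789, so it is a different set of cells. In the classes with the highest level, Npr1 overlapped between genotypes. Venular-like cells had 121, 105 and 93.9 normalized CPM in WT and 93.6, 75.4 and 104 in Arom (log2 difference -0.22, SE 0.15, against 23.1% of genes without overlap). Capillary-like cells had 77.3, 71.7 and 70.9 in WT and 81.1, 77.8 and 74.3 normalized CPM in Arom (log2 difference 0.08, SE 0.14, against 12.5%). Same-numbered samples deviated together in both classes. Npr1 was higher in Arom in each of the 3 same-numbered pairs of capillary-like cells, where the replicate block also gave 0.08 (SE 0.14), and lower in 2 of the 3 pairs of venular-like cells, where it gave -0.23 (SE 0.14). In the blood endothelial cluster 0, Npr1 was higher in Arom, at 67.2, 53.8 and 59.6 against 53.4, 48.7 and 49.9 normalized CPM in WT, in a class where 20.4% of genes did not overlap.

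Npr2, which encodes the cyclase for the Nppc peptide, was highest per UMI in capillary-like endothelial cells, at 30.3 ± 5.71 CPM, apart from the next class by more than the SDs. Of all Npr2 UMIs, fibroblast-like cells, which were more numerous and deeper, held 51.2% and blood endothelial cells 20.7%. Esr1-high HAF-like cells alone held 18.0% and capillary-like cells 7.20%. Lymphatic endothelial-like cells had 18.5 ± 3.01 CPM, tenocyte progenitor-like cells 17.3 ± 3.12 CPM, non-myelinating glia-like cells 15.3 ± 7.04 CPM and Dmkn-like fibroblasts 13.3 ± 3.00 CPM. These classes could not be ordered beyond their spread. Esr1-high HAF-like cells, which held most Nppc RNA with all mice pooled, had 9.93 ± 2.05 CPM of Npr2, and MuSCs/myoblasts had 9.15 ± 3.86 CPM. Pericyte-like cells were lowest, at 0.955 ± 1.48 CPM. An Npr2 UMI was found in 10.1% of capillary-like cells, at a median depth of 2780 UMIs, and in 0.231% of pericyte-like cells, at 1835 UMIs. Npr2 was thus found in classes with and without Nppc.

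Npr2 passed the filter in 13 of the 20 classes and overlapped between genotypes in all 13. Most tests of all genes in the 20 classes also overlapped, with 10.3% higher and 9.85% lower without overlap. In Esr1-high HAF-like cells it was at 7.74, 7.50 and 12.2 in WT and 10.5, 9.82 and 11.97 normalized CPM in Arom, a log2 difference of 0.28 (SE 0.23), and in cluster 4 alone the difference was 0.47 (SE 0.23). In capillary-like cells it was at 27.5, 26.0 and 29.0 in WT and 25.9, 38.9 and 35.4 normalized CPM in Arom (0.29, SE 0.19). In MuSCs/myoblasts it was at 8.39, 11.4 and 16.3 in WT and 4.03, 6.30 and 9.90 normalized CPM in Arom (-0.85, SE 0.36), and WT mouse 1 lay among the Arom mice. There, where same-numbered samples deviated together, Npr2 was lower in Arom in each of the 3 same-numbered pairs, and with the replicate number as a block the difference was -0.84 (SE 0.28). With all blood endothelial cells summed, Npr2 was lower in each Arom mouse, at 13.4, 13.3 and 14.3 against 15.2, 14.8 and 17.0 normalized CPM, in a sum where 37.4% of genes did not overlap. The mix of this sum differed, with 783, 1431 and 901 capillary-like cells in WT and 208, 185 and 353 in Arom, and 465, 276 and 365 venular-like cells in WT and 903, 557 and 611 in Arom. The part of the mix in values of this sum was not tested.

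Npr3, the clearance receptor gene, had another pattern over classes. It was highest in the unnamed cluster 25, at 36.0 ± 9.83 CPM (SD, n = 6, range 23.4 to 51.2), whose leading genes were Lypd2, Sfrp5, Hcn4 and Wnt6 and included Itgb4, Cldn1 and Slc2a1, known from the perineurium that wraps nerve bundles. An Npr3 UMI was present in 15.4% of its 467 cells (median depth 5839 UMIs) and in 0.412% of macrophage/monocyte-like cells (median depth 5090 UMIs). Myelinating Schwann-like cells followed at 16.4 ± 4.22 CPM, capillary-like cells at 14.5 ± 5.39 CPM, arterial-like cells at 13.3 ± 9.96 CPM and Esr1-high HAF-like cells at 9.53 ± 5.43 CPM, and no neighbors among these differed by more than their SDs. Of all Npr3 UMIs, 29.8% were in Esr1-high HAF-like cells, 25.5% in blood endothelial cells and 5.18% in cluster 25. Another 14.5% were in the unnamed cluster 9. Within the Esr1-high HAF-like class nearly all Npr3 was in cluster 4, with 588 of 674 UMIs.

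Npr3 passed the filter in 6 of the 20 classes and overlapped between genotypes in each. So did most tests of all genes in the 20 classes, of which 10.3% were higher and 9.85% lower without overlap. It was at 5.75, 11.0 and 19.6 in WT and 6.70, 5.23 and 8.73 normalized CPM in Arom for Esr1-high HAF-like cells, a log2 difference of -0.69 (SE 0.42). In cluster 4 alone the difference was -0.32 (SE 0.40), and over the alternatives it ran from -0.80 to 0.19, so it had no fixed direction. In arterial-like cells it was at 12.7, 30.7 and 9.44 in WT and 5.96, 17.4 and 3.75 normalized CPM in Arom (-1.24, SE 0.56), where 18% of genes tested did not overlap. Mouse 2 was the highest of both genotypes, and Npr3 was lower in Arom in each same-numbered pair. Same-numbered samples of this class correlated at 0.07, 0.08 and 0.35, so they were not taken as pairs. In myelinating Schwann-like cells it was at 24.3, 16.8 and 17.8 in WT and 11.7, 17.0 and 13.1 normalized CPM in Arom (-0.47, SE 0.29). With all blood endothelial cells summed, the levels were 8.29, 15.3 and 5.09 in WT and 2.67, 4.94 and 3.91 normalized CPM in Arom, a log2 difference of -1.33 (SE 0.39) without overlap, in the sum with 37.4% of genes not overlapping and fewer capillary-like cells in Arom.

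Some single cells of cluster 4 held UMIs of both Nppc and a receptor gene. An Npr2 UMI was present in 11.7%, 12.5% and 17.6% of the cluster's cells with an Nppc UMI in WT mice and in 20.7%, 15.2% and 24.6% in Arom mice. In its cells without an Nppc UMI, these shares were 5.88%, 8.05% and 11.3% in WT and 15.8%, 12.8% and 21.95% in Arom. The share was higher in the cells with Nppc in all 6 mice, but these cells were also deeper in all 6 mice, and the part of depth was not tested. By CPM, Npr2 was lower in the cells with 10 or more Nppc UMIs than in those with none in 4 of the 6 mice, so no direction is read from the shares. The shares with an Npr1 UMI and with an Npr3 UMI were each higher in the cells with Nppc in 3 mice and lower in 3. Free RNA can also give such UMIs. The share of pericyte-like cells with an Npr2 UMI was 0.231%, and that of macrophage/monocyte-like cells with an Npr3 UMI was 0.412%. In capillary-like cells, where Npr2 was highest, 31 of 3861 cells had an Nppc UMI, and in venular-like cells 60 of 3177.

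The genes whose levels followed each member most closely over the 26 classes are given as a description (Pearson's r of log2(mean CPM + 1), 12104 genes that reached 10 CPM in a class), since the classes share libraries and depth. For Nppc these were Clec2l (r = 0.76), Mdk (0.73), Greb1 (0.72), Oxtr (0.72) and Ammecr1 (0.72), all highest in Esr1-high HAF-like cells. Mdk encodes the secreted growth factor midkine and Oxtr the oxytocin receptor. For Npr1 they were Cyb561 (r = 0.93), Arsa (0.88), Hdac7 (0.87), Asah2 (0.86) and Bst2 (0.83). For Npr2 they were S100a16 (r = 0.87), Prkd1 (0.82), Nfib (0.80), Aida (0.79) and Smad5 (0.79). For Npr3 they were Pitpnm3 (r = 0.80), Nfe2l1 (0.78), Trappc2 (0.77), Dynlt3 (0.77) and Mmp15 (0.75), of which the first 4 were highest in cluster 25.

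The rest of the pathway was read from a list of 30 gene symbols, in which some genes stood under both an older and a newer symbol. They covered other ligands, peptide processing and degradation, soluble guanylate cyclase, cyclic GMP kinases, phosphodiesterases, export and inhibitory G proteins. Of these symbols 25 were in the table, and Nppa and Nppb, which encode the atrial and brain peptides, were among the 5 that were not used here. With p-values adjusted by Benjamini and Hochberg's method over all genes of a class, the edgeR quasi-likelihood test called 5 of 271 tests of these genes in the 20 separate classes, where 1.5% of all 173819 tests were called. In Esr1-high HAF-like cells, 3 of 21 passed, 1 higher and 2 lower in Arom, where 10.8% of all 12146 genes tested were called (median log2 difference -0.05 for the list and -0.0031 for all genes). In cluster 4 alone 2 of 19 passed, Corin and Pde3a, against 8.81% of all genes.

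Corin, the membrane protease known for cutting the atrial peptide precursor, was at 1.77, 0.58 and 0.68 in WT and 24.3, 48.6 and 7.13 normalized CPM in Arom for Esr1-high HAF-like cells. Its log2 difference was 4.41 (SE 0.94, edgeR adjusted p = 0.028), and every Arom mouse was above every WT mouse. The WT levels of Corin rest on very few UMIs per mouse. The call was lost without WT mouse 1, 2 or 3 or without Arom mouse 1 (adjusted p 0.096, 0.089, 0.10 and 0.077), and not without Arom mouse 2 or 3. Pde3a, a phosphodiesterase of cyclic AMP that cyclic GMP inhibits, was at 99.3, 99.8 and 79.1 in WT and 39.7, 39.3 and 52.3 normalized CPM in Arom, a log2 difference of -1.09 (SE 0.16, edgeR adjusted p = 0.012). That call was lost without Arom mouse 1 (adjusted p = 0.060) and held without each of the other mice. Gucy1a2, a subunit of soluble guanylate cyclase, the nitric oxide receptor, was at 1.99, 4.04 and 2.03 in WT and 0.61, 0.62 and 0.64 normalized CPM in Arom (log2 difference -2.02, SE 0.40, edgeR adjusted p = 0.023). The WT levels of Gucy1a2 also rest on few UMIs. This gene could pass the filter on low counts through the WT mice alone, and Corin through the Arom mice alone. Its call was lost without WT mouse 1, 2 or 3 (adjusted p 0.060, 0.076 and 0.073), and the gene did not pass the filter without an Arom mouse.

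**Figure D5:**
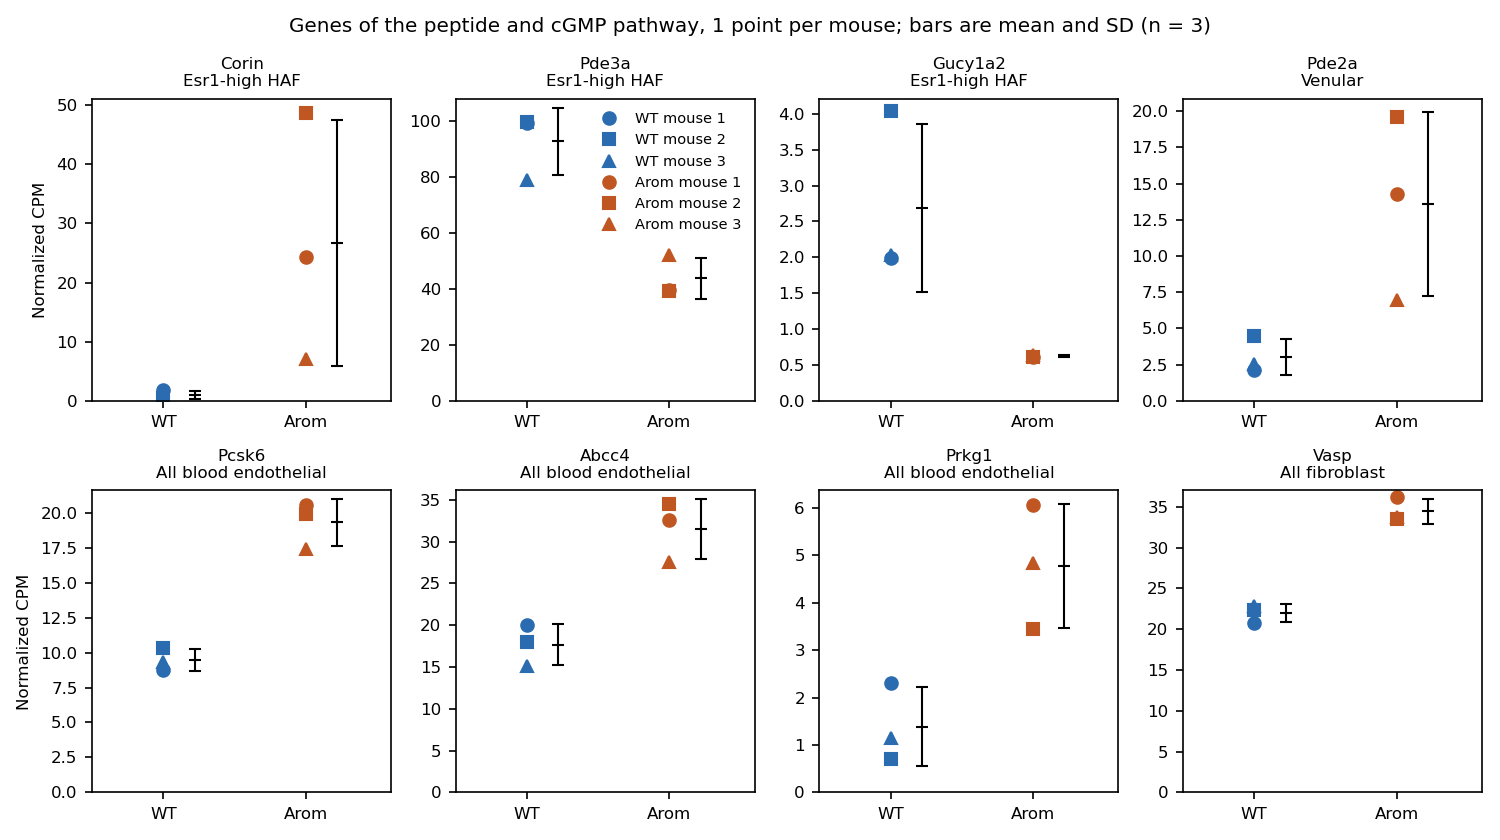
Normalized CPM of 8 pathway genes in each mouse, with mean and SD per genotype (n = 3) beside the points, in the class named above each panel. Corin, Pde2a, Pcsk6, Abcc4, Prkg1 and Vasp were higher and Pde3a and Gucy1a2 lower in all 3 Arom mice than in any WT mouse. Only genes that had passed edgeR's test in the class are drawn, so this separation follows largely from their choice.

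In the other separate classes, 2 more calls were made. In venular-like cells 1 of 13 list genes passed, against 1.24% of all genes. This was Pde2a, a phosphodiesterase that cyclic GMP activates, at 2.11, 4.47 and 2.54 in WT and 14.3, 19.6 and 6.96 normalized CPM in Arom (log2 difference 2.18, SE 0.44, edgeR adjusted p = 0.041). In the same cells the summed fibroblast list was higher in Arom, at 278 to 368 against 92.5 to 200 CPM, with 7 of its 8 genes higher, and the pericyte list was lower, at 40.7 to 56.2 against 81.5 to 144 CPM, with 1 of 7 genes lower. Their part in the Pde2a difference was not tested. The call was lost without WT mouse 1, 2 or 3 or Arom mouse 1 or 2 (adjusted p 0.14, 0.16, 0.15, 0.18 and 0.13). With the replicate number as a block, 3 list genes and 624 in place of 116 genes were called. In cluster 1 of the other fibroblast-like cells 1 of 18 passed, against 0.796% of all genes. This was Pcsk6, a protease that can activate Corin, at 104, 135 and 114 in WT and 166, 184 and 190 normalized CPM in Arom (log2 difference 0.61, SE 0.12, edgeR adjusted p = 0.049). It was lost when any 1 of the 6 mice was left out (adjusted p 0.055 to 0.17). In MuSCs/myoblasts 0 of 10 list genes passed edgeR's test, against 3.04% of all genes (246 called, 1788 at an unadjusted p under 0.05). DESeq2 called 1 list gene there, and with the replicate number as a block edgeR called 2 list genes and 637 genes in all. In the other 16 classes together 0 of 209 tests passed, against 0.626% of all tests, with 0 to 228 genes called per class.

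Sums over broader groups gave further calls. With all blood endothelial cells summed, 4 of 21 list genes passed, all higher in Arom, against 14.9% of all genes (1797 genes, and 109 to 2978 over 15 alternatives, the highest with the replicate number as a block and the lowest with runs of the table's columns). Without WT mouse 2 the genes called were 632, without Arom mouse 1 they were 510 and without Arom mouse 2 they were 829. The mix of endothelial clusters differed between genotypes here too. The summed fibroblast list in these cells was at 231 to 316 CPM in WT and 433 to 528 CPM in Arom, with 7 of 8 genes higher, and the blood endothelial list was at 5243 to 5905 CPM in WT and 5009 to 5099 CPM in Arom, with 4 of 8 genes lower and 2 higher. The mesothelial list was higher too, at 10.9 to 21.02 against 3.61 to 7.20 CPM, with 5 of 8 genes higher. The myonuclei list was lower, at 70.1 to 108 against 155 to 252 CPM, with all 8 genes lower. The part of these lists in the values of this sum was not tested. Pcsk6 was at 8.76, 10.3 and 9.33 in WT and 20.6, 19.9 and 17.4 normalized CPM in Arom (log2 difference 1.02, edgeR adjusted p = 0.0051). Abcc4, which exports cyclic nucleotides, was at 20.0, 18.0 and 15.1 in WT and 32.6, 34.5 and 27.5 normalized CPM in Arom (0.83, edgeR adjusted p = 0.0080). Both calls held without any 1 mouse. Prkg1, the cyclic GMP-dependent kinase, differed by 1.86 (edgeR adjusted p = 0.015, 0.052 without WT mouse 2 and 0.072 without Arom mouse 1), and Gnai1, an inhibitory G protein subunit, by 0.84 (edgeR adjusted p = 0.033, and 0.088, 0.13 and 0.095 without WT mouse 2 or Arom mouse 1 or 2). With runs of the table's columns in place of the clusters, none of the 4 passed (adjusted p 0.058 to 0.12).

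With all fibroblast-like cells summed, 3 of 25 list genes passed, against 15.8% of all genes. That share rests on single mice: the genes called were 2197, against 210, 6 and 7 without WT mouse 1, 2 or 3 and 4, 52 and 4379 without Arom mouse 1, 2 or 3, and 1 with the study's limits. The share of Esr1-high HAF-like cells in this sum differed between genotypes. Corin differed by 4.87 (edgeR adjusted p = 0.024) and Gucy1a2 by -1.20 (edgeR adjusted p = 0.037). Vasp, a substrate of the cyclic GMP-dependent kinase, was at 20.8, 22.3 and 22.8 in WT and 36.2, 33.5 and 33.7 normalized CPM in Arom (log2 difference 0.65, edgeR adjusted p = 0.015). Without Arom mouse 3 all of these held. Without WT mouse 2 or 3 or Arom mouse 1 or 2, none did, with adjusted p of 0.054 to 0.079 for Vasp. Without WT mouse 1, Vasp held (adjusted p = 0.048) and Corin and Gucy1a2 did not (0.077 and 0.070).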

How the data were processed

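Single-cell libraries of lower abdominal muscle from 3 WT and 3 Arom mice were analysed. The authors aligned the reads with Cell Ranger 3.0.2 to mm10, to which the methods add human CYP19A1, and deposited raw UMI counts per gene and barcode as 1 table. Mouse and genotype were taken from the column names and sample titles. Per the methods, a WT and an Arom littermate were processed on each of 3 dates, which the labels do not tie to the numbers.

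Barcodes with at least 200 genes and 1000 UMIs were kept (59227 of 63647). The study's upper limits of 2500 genes and 5% mitochondrial UMIs leave 18852 and were an alternative. Counts were normalized to 10000 per cell, and 2000 variable genes without the members and pathway genes, 30 principal components, 20 neighbours and Leiden clustering at resolution 0.8 (scanpy 1.11.5, leidenalg 0.10.2) gave the clusters. Clusters were named from marker lists. The requirement of 60% of a list's markers, and rules that take a name away from mixed, perineurial, spermatid or cycling clusters, were set after the clusters were seen. Doublets were marked by Scrublet with 1 threshold for all mice, since the automatic one marked 0.0266% of cells in 1 mouse, and were kept except in an alternative.

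CPM were computed from the deposited counts summed per mouse and class. Genotypes were compared in the 20 separate classes and 3 sums or parts of them with at least 20 cells per mouse, by edgeR 4.0.16 (TMM, filterByExpr, quasi-likelihood test, Benjamini-Hochberg over all genes of a class, threshold 0.05) without a replicate block. The edgeR test was also run on simulated sums with known changes, the results of which are not given here. Samples with the same number deviated together (every correlation over 0.1) in 6 of 23 fits, MuSCs/myoblasts, venular-like and all blood endothelial cells among them, and not in Esr1-high HAF-like cells. Alternatives were DESeq2 1.42.0, RLE size factors, no filter, the block, each mouse left out, other limits, no doublets, finer clusters and runs of table columns. Intervals for zero counts allow 3 counts and cover counting error only.

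The 4 genes, the marker lists and the pathway list were chosen with earlier results of these data known. Named besides the members were pathway genes that passed the test (at most 12), the 5 genes most like each member over classes, and Esr1, Greb1 and Pgr. Pax7, Myod1, Myf5 and the split of cells by Nppc UMIs were chosen after Nppc values were seen.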

Additional observations from a re-analysis of the deposited data

Results flagged for a closer look

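The log2 difference of Nppc between Arom and WT was 1.52 in Esr1-high HAF-like cells and -2.20 in MuSCs/myoblasts. Every Arom mouse was above every WT mouse in the former and below every WT mouse in the latter. The difference between these classes was not tested.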

How the results depend on the processing

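Of 847 alternative values for genotype differences of Nppc, Npr1, Npr2 and Npr3, 798 moved by less than 1 SD between replicates. Another 48 moved by more, and 1 was marked reversed. That mark required a change of sign beyond 1 SD where the genotypes had not overlapped. It fell on Npr1 in Dmkn-like cells, at 0.050 with runs of the table's columns as classes, an alternative chosen after seeing the data. With the study's limits 12 values moved by more than 1 SD and 5 did not. With the runs of columns 13 moved, 1 reversed and 28 did neither. With DESeq2, RLE size factors, no filter or the replicate block, all 63 stayed within 1 SD. Whether within 1 SD or beyond it, the sign changed for 1 of 277 Nppc values, 12 of 231 for Npr1, 20 of 219 for Npr2 and 7 of 120 for Npr3. Some of these changes were beyond 1 SD. Nppc in non-myelinating glia-like cells went from 1.13 to -1.51 without Arom mouse 2. Npr1 in tenocyte progenitor-like cells went from -0.30 to 0.44 with the study's limits. The runs of the table's columns gave 2.48 for Nppc and 0.0049 for Npr2 in Esr1-high HAF-like cells. Nppc in MuSCs/myoblasts was -3.41 at no more than 5% mitochondrial UMIs and -2.92 with the study's limits. Under those limits Esr1-high HAF-like cells were few in both genotypes, at 101, 11 and 15 in WT mice 1 to 3 and 90, 111 and 30 in Arom mice 1 to 3. No genotype difference was fitted for them, since WT mice 2 and 3 had fewer than 20 cells. In Esr1-high HAF-like cells the genes called were 1317, against 1983 with DESeq2, 685 at no more than 5% mitochondrial UMIs and 146 to 2226 without 1 mouse. Pathway genes called there were 6 with DESeq2, 6 with the replicate block and 0 to 5 without 1 mouse. In MuSCs/myoblasts 777 genes were called with no filter, 637 with the replicate block, 21 at no more than 5% mitochondrial UMIs, 30 with the study's limits and 0 to 1057 without 1 mouse. Pathway genes called there were 1 with DESeq2, 2 with no filter, 2 with the block and 0 to 2 without 1 mouse. Same-numbered samples of Esr1-high HAF-like cells correlated at 0.19, -0.04 and 0.13, so the numbers were not taken as pairs, and the block raised its calls to 1665. The cause of these changes was not tested, except that fewer cells or mice entered some. Depth limits Npr3 and Npr2, seen in few cells of most classes.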
